A study of Mus musculus with 4 samples.

Results

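The p53 pathway was followed through 10 genes in PRO-seq data of mouse liver, namely *Trp53*, which encodes p53, and 9 genes of its response, *Mdm2*, *Cdkn1a*, *Ccng1*, *Gadd45a*, *Bax*, *Phlda3*, *Eda2r*, *Trp53inp1* and *Sesn2*. They were chosen by symbol from the 20642 gene symbols of the deposited table, and where a symbol had several transcripts, that with the most promoter-proximal reads on average stood for it. PRO-seq is a precision run-on assay in which polymerases that are engaged on DNA in isolated nuclei add labelled nucleotides to the RNA they hold, so it reports transcription and not the amount of mRNA. Each transcript has a promoter-proximal value, the reads in the 50 bp window with the most reads around its transcription start site (TSS), and a gene body value, the reads from 1 kb downstream of the start to the end of the transcript. Of the 10 genes, 9 were among the 12705 active genes that were tested (at least some reads near the promoter, and more than 4 normalized reads per kb on average in the gene body), and *Eda2r* was not. Positions are those of the transcripts in GENCODE on GRCm38 (mm10), the build of the study. A gene body should be about 1 kb shorter than its transcript. For *Cdkn1a*, however, the counted gene body was 8737 bp beside a GENCODE span of 8723 bp, and for *Sesn2* 16650 beside 18470 bp. The positions given for these genes are therefore not exactly those counted.

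The study compared wild-type (WT) with *Hdac3* KO livers of C57BL/6 mice on day 14 after birth, with 2 libraries each, named WT1, WT2, KO1 and KO2. Mice of both groups carried Alb-Cre, a Cre recombinase driven by the albumin promoter, which is active in hepatocytes. WT mice had 2 intact *Hdac3* alleles (+/+), and KO mice had a conditional allele together with a conditional or a null allele (F/F or F/-). Nuclei of several mice were pooled for each library. Cells in which Cre did not act keep *Hdac3* in this model, but in F/- mice only from the conditional allele. Which liver cells these were was not measured. Differences between single mice and between cell types were not measured. Where values of a group are given as a pair, library 1 comes first.

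p53 is a transcription factor that is held at a low level by the ubiquitin ligase MDM2, itself a p53 target, and that accumulates when DNA damage kinases such as ATM phosphorylate it. Stabilized p53 binds pairs of a short half-site in promoters and introns, and switches on genes for cell cycle arrest, apoptosis, DNA repair and metabolic adaptation. HDAC3 is a histone deacetylase that works with the NCoR and SMRT corepressors, and polymerases often pause just downstream of the start site before they enter the gene body.

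The targeted gene and the libraries were looked at first. Normalized gene body reads of *Hdac3* were 665 and 648 in WT and 609 and 582 in KO, and its promoter-proximal reads were 130 and 108 in WT and 112 and 211 in KO. Neither region passed the test (log2 fold changes of KO over WT -0.14 and 0.38, limma adjusted p = 0.413 and 0.370). Deleted exons need not stop a gene from being transcribed and were not counted separately, so these values do not check the genotypes, which rest on the labels. Reads on genes ranged from 16628518 in KO2 to 26190040 in WT2, and the share that fell in promoter-proximal windows was 10.3% and 9.38% in WT and 13.6% and 17.0% in KO. KO2 thus stood apart, with the fewest reads and the highest promoter-proximal share. Among active genes, 3282 were called up and 280 down in the promoter-proximal region, and the median log2 fold change there was 0.56, so changes of single genes are also given relative to it. Median-of-ratios scaling within the region, which sets this median near 0, turned the split to 634 up and 942 down.

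Liver cell type markers moved between the groups. Over all active genes, 10.4% were called up and 11.4% down in the gene body, the background for the calls that follow. In the gene body, 7 of 8 hepatocyte markers were called down (summed normalized reads 329653 and 346996 in WT, 145737 and 140866 in KO). Called up were 6 of 7 endothelial markers (63702 and 67838 in WT, 122791 and 108355 in KO) and 7 of 7 stellate markers (11570 and 12670 in WT, 25563 and 23172 in KO). None of the 8 Kupffer and myeloid markers and none of the 7 proliferation markers was called there by limma, edgeR or DESeq2 (3 of the former up and 2 of the latter down at an unadjusted p under 0.05 in limma), while 4 of 4 erythroid markers and 1 of 3 cholangiocyte markers were called down. No marker was at 0 in the gene body of any library, and the hepatocyte markers had the largest summed reads of the marker lists in every library. In bulk liver, fewer cells of a type and less nascent RNA per cell cannot be told apart, and the part of these marker changes in the results below was not tested.

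The promoters of the pathway differ in the sequence that p53 binds. Promoter windows of RefSeq (GRCm38.p6, 300 bp from 250 bp before to 50 bp after the start) were at hand for 9 of the 10 genes, with 2 windows for *Cdkn1a*. Both strands were searched for the 10-base p53 half-site consensus. It was found in 6 of the 10 windows and in 8.36% of all 32851 windows of the table. An exact pair, with at most 13 bp between the half-sites, was present in 0.0731% of all windows, and of the pathway genes only the upstream *Cdkn1a* window held one, with half-sites that began 73 and 51 bp before the start. With at most 1 mismatch over a pair, found in 1.09% of all windows, *Ccng1* and *Bax* also held one, beginning 195 and 212 bp before their starts. The 250 bp before the start are shown for these 3 genes, and for the downstream *Cdkn1a* start because it held no half-site. Capitals mark the half-sites of the pair with the fewest mismatches, where that pair had at most 1 mismatch. The downstream *Cdkn1a* window had no such pair and holds no capitals. In the upstream *Cdkn1a* window, the half-site at 51 bp is directly followed by 10 bases with 1 mismatch to the consensus. That second pair, with no bases between its half-sites, is not marked in full.
Cdkn1a, upstream start, chr17:29090729-29090978, plus strand: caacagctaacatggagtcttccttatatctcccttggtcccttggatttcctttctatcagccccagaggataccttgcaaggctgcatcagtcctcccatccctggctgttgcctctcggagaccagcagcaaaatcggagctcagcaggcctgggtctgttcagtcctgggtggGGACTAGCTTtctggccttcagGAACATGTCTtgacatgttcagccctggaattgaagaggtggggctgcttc
Cdkn1a, downstream start, chr17:29093519-29093768, plus strand: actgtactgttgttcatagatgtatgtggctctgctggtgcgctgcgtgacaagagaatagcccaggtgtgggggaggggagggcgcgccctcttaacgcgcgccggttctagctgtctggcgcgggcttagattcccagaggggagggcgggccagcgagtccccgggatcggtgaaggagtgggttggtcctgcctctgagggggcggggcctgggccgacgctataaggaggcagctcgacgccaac
Ccng1, chr11:40755287-40755536, minus strand: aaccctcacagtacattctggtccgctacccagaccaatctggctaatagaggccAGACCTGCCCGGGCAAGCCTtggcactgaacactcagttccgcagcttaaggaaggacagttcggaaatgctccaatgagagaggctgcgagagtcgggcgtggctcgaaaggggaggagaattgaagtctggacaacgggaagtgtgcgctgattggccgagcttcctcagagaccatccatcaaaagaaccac
Bax, chr7:45466899-45467148, minus strand: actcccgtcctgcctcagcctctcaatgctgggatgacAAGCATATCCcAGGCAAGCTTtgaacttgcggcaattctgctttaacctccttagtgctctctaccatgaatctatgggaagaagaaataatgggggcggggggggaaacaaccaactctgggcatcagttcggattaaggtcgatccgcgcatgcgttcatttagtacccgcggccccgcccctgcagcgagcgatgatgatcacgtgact

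Single half-sites began 40 bp before the start of *Gadd45a*, 186 bp before that of *Mdm2* and 75 bp before that of *Trp53*. No half-site was found in the windows of *Phlda3*, *Sesn2* and *Eda2r*. A match is a description of letters, not evidence of binding, and the windows do not reach into first introns, where many p53 sites lie. The 2 *Cdkn1a* windows also differed in CpG content, with 2 CpG in the upstream window and 23 in the downstream one, beside a median of 7 over all windows.

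In the promoter-proximal region, *Trp53*, *Mdm2* and *Phlda3* were called up in *Hdac3* KO livers and no pathway gene was called down (5 up and 0 down at an unadjusted p under 0.05 in limma). The counts were also 3 and 0 with edgeR and with DESeq2. A call required an adjusted p under 0.05 from limma, with Benjamini-Hochberg adjustment over active genes, and an absolute log2 fold change over 0.6. Over all active genes, 25.8% were called up and 2.20% down in this region, so 3 of 9 is close to the background share. At an unadjusted p under 0.05 in limma, 5067 of the 12705 active genes were up and 446 down. The log2 fold changes of the 9 genes were all above 0, as were those of 10695 of the 12705 active genes, and their median was 0.76 beside 0.56 for all active genes. Both KO libraries lay above both WT libraries for 8 of the 9, beside 61.9% of active genes.

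In the gene body, none of the 9 genes was called up and *Cdkn1a* was called down (1 up and 3 down at an unadjusted p under 0.05 in limma, and also 0 up and 1 down in edgeR and DESeq2), beside 10.4% and 11.4% of active genes called up and down. At an unadjusted p under 0.05 in limma, 2504 of the 12705 active genes were up and 3425 down. The median log2 fold change was 0.03 for the pathway and -0.09 for all active genes. Both KO libraries lay above both WT libraries for *Trp53*, *Ccng1* and *Bax* (27.6% of active genes) and below them for *Cdkn1a*, *Trp53inp1* and *Sesn2* (42.8% of active genes). The 3 genes called up in the promoter-proximal region were not called in the gene body, beside 2355 of 3282 such active genes. The plot of the changes in each region places the 3 genes above the horizontal median line and close to 0 on the gene body axis.

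**Figure D1:**
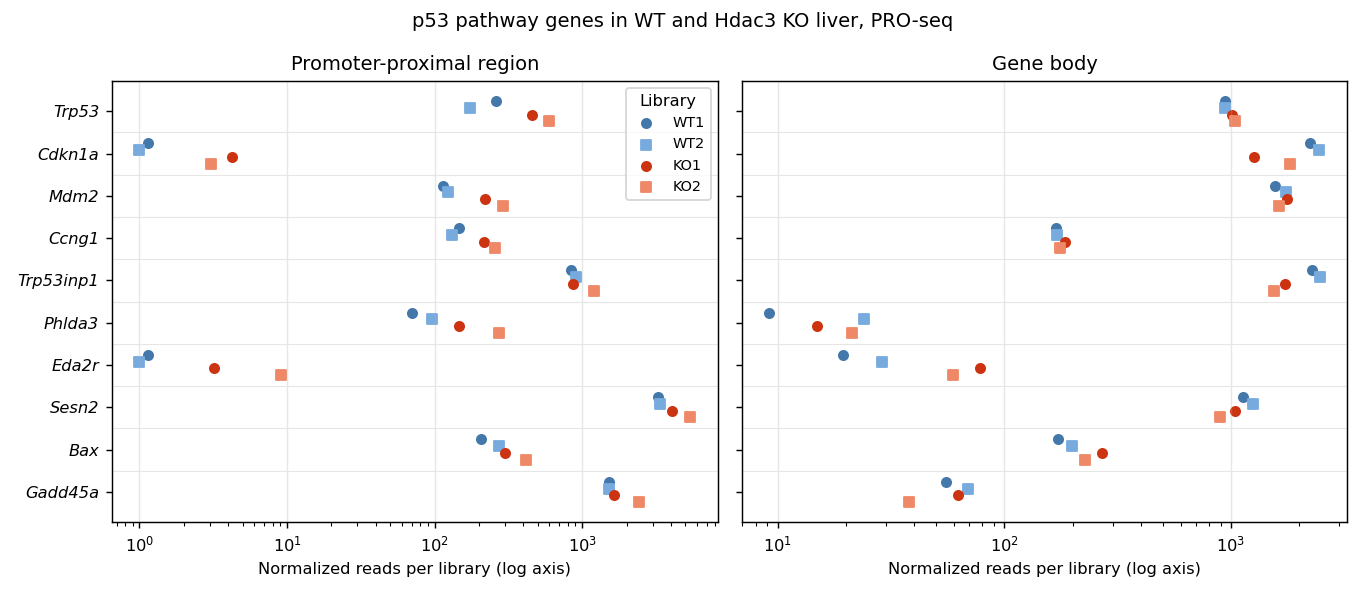
Normalized reads of the 10 pathway genes in the promoter-proximal region (left) and the gene body (right), on log axes, with 1 point for each library. KO points (red) lie right of WT points (blue) for *Trp53*, *Mdm2* and *Phlda3* on the left, whereas on the right the KO points of *Cdkn1a* (1261 and 1825) lie left of its WT points (2238 and 2438).

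**Figure D2:**
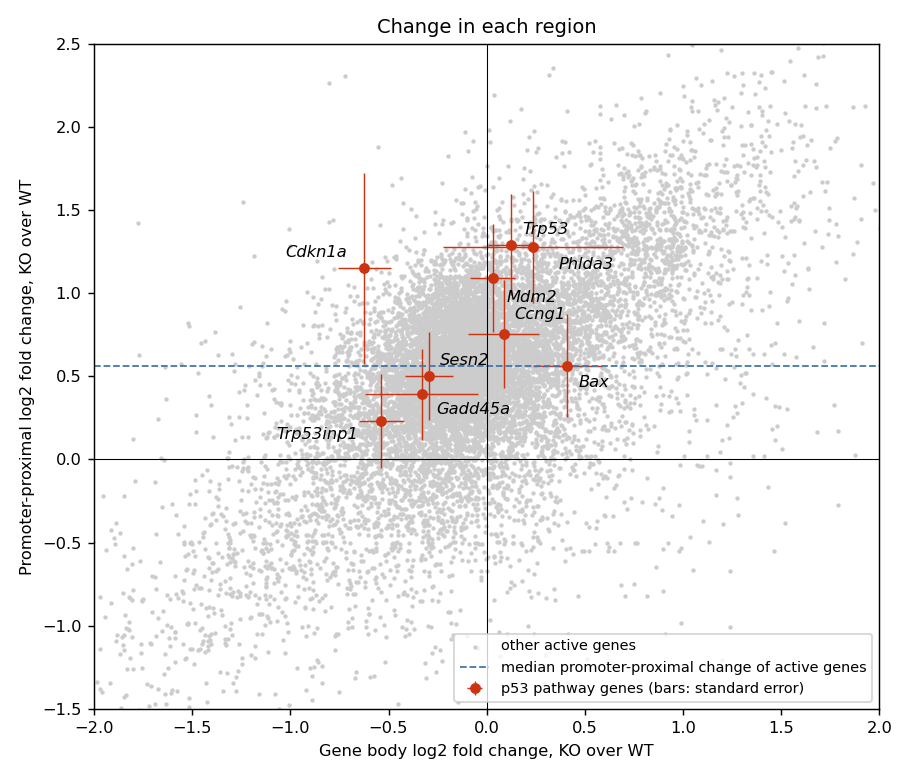
Promoter-proximal against gene body log2 fold change (KO over WT) of the 9 tested pathway genes (red, bars are standard errors) and other active genes (grey); the dashed line is the median promoter-proximal change of 0.56, and 181 of the 12705 active genes lie outside the axes. *Trp53*, *Mdm2* and *Phlda3* lie above the line with gene body changes from 0.03 to 0.24, and *Cdkn1a* lies at -0.62 in the gene body.

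*Trp53* (chr11:69580359-69591872, plus strand) is the center of the pathway. Near its promoter, the WT libraries had 259 and 174 normalized reads and the KO libraries 455 and 598. Both KO libraries were well above both WT libraries, and the 2 WT libraries differed from each other by less than either differed from KO1. The log2 fold change was 1.29 (standard error 0.31, limma adjusted p = 0.000506), a 2.45-fold rise that exceeds the median of active genes by 0.73. Its gene body reads were 937 and 942 in WT and 1005 and 1045 in KO. The KO libraries were higher here too, but by little (log2 fold change 0.12, standard error 0.12, limma adjusted p = 0.437). The promoter-proximal call remained with scaling within the region (0.72, limma adjusted p = 0.0271). It was lost without WT2 (1.01, limma adjusted p = 0.179) and without KO2 (1.10, limma adjusted p = 0.0741).

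*Mdm2* (chr10:117688875-117710758, minus strand) encodes the ubiquitin ligase that marks p53 for degradation. It had 114 and 123 promoter-proximal reads in WT and 220 and 292 in KO, so the WT libraries were close to each other and the KO libraries lay above them. The rise was 1.09 on the log2 scale (standard error 0.33, limma adjusted p = 0.00707), 0.53 above the median of active genes. Gene body reads were 1566 and 1748 in WT and 1759 and 1622 in KO. These overlapped between the groups, with a log2 fold change of 0.03 (standard error 0.11, limma adjusted p = 0.860) whose sign turned without WT1 (-0.05) or KO1 (-0.03). With scaling within the region the promoter-proximal value was 0.52 and was not called (limma adjusted p = 0.138), and without WT1, WT2 or KO2 it was 1.035, 1.15 or 0.89, with limma adjusted p = 0.166, 0.153 and 0.110.

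Among the genes for cell cycle arrest, *Cdkn1a* (chr17:29090979-29099701, plus strand) encodes p21, the cyclin-dependent kinase inhibitor through which p53 stops the cell cycle. It was the only pathway gene that met both criteria for a call in the gene body, with 2238 and 2438 normalized reads in WT and 1261 and 1825 in KO. Both KO libraries were below both WT libraries, and they differed from each other more than the WT libraries did. The log2 fold change was -0.62 (standard error 0.14, limma adjusted p = 0.000755), 0.65 times the WT level. This lies just past the fold threshold. It was not called with scaling within the region (-0.54, limma adjusted p = 0.0421), without WT2 (-0.56, limma adjusted p = 0.000458) or without KO1 (-0.36, limma adjusted p = 0.0733).

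The promoter-proximal window of *Cdkn1a* held almost no reads, namely 1 and 1 in WT and 4 and 2 in KO before scaling. Over the groups this is 2 against 6 reads, a depth-adjusted ratio of 3.51 with an exact 95% interval of 0.627 to 35.5 that covers counting error only, and the region was not called (limma adjusted p = 0.108). The transcript in the table begins at the upstream start shown above. The second RefSeq start lies 2790 bp downstream, inside the region counted as gene body, so reads of polymerases that began or paused there are part of the gene body value. No other pathway gene had another coding start in its gene body.

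*Ccng1* (chr11:40748552-40755311, minus strand) encodes cyclin G1, a p53 target that acts on the cell cycle and on MDM2. It had 146 and 132 promoter-proximal reads in WT and 216 and 255 in KO. The groups did not overlap, but the log2 fold change of 0.76 (standard error 0.32) missed the threshold (limma adjusted p = 0.0621). Gene body reads were 169 and 171 in WT and 185 and 176 in KO, a log2 fold change of 0.09 (standard error 0.18, limma adjusted p = 0.737).

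*Gadd45a* (chr6:67035096-67037406, minus strand) encodes a small stress protein that binds p21 and PCNA and takes part in arrest and repair. It had 1525 promoter-proximal reads in each WT library, 1645 in KO1 and 2440 in KO2, and only KO2 stood clearly above the rest (log2 fold change 0.39, standard error 0.27, limma adjusted p = 0.250). Its short gene body had 55.1 and 69.0 reads in WT and 62.6 and 38.0 in KO, which overlapped (log2 fold change -0.33, standard error 0.29, limma adjusted p = 0.382). Without KO2 this value was 0.02.

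Of the genes for apoptosis, *Bax* (chr7:45461697-45466898, minus strand) encodes the pore-forming protein of the outer mitochondrial membrane. It had 208 and 275 promoter-proximal reads in WT and 300.2 and 418 in KO, and 173 and 199 gene body reads in WT and 268 and 228 in KO. KO libraries were higher in both regions without overlap. Neither passed the test, with log2 fold changes of 0.57 (standard error 0.31, limma adjusted p = 0.142) and 0.41 (standard error 0.17, limma adjusted p = 0.0665).

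*Phlda3* (chr1:135766119-135769136, plus strand) encodes a small pleckstrin homology protein that restrains AKT and lies downstream of p53. It had 70.0 and 96.0 promoter-proximal reads in WT and 147 and 272 in KO. The KO libraries were above the WT libraries, with KO2 well above KO1, and the log2 fold change was 1.28 (standard error 0.34, limma adjusted p = 0.00215), 0.72 above the median of active genes. In contrast, its gene body held only 9.18 and 24 reads in WT and 14.9 and 21.3 in KO, which overlapped (log2 fold change 0.24, standard error 0.46, limma adjusted p = 0.718). The promoter-proximal call was lost with scaling within the region (0.71, limma adjusted p = 0.0762). It was also lost without WT1 (1.05, limma adjusted p = 0.170), WT2 (1.5, limma adjusted p = 0.0576) or KO2 (0.84, limma adjusted p = 0.165).

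*Eda2r* (chrX:97333840-97377216, minus strand) encodes a receptor for ectodysplasin A2 and had the lowest gene body density of the pathway in both groups. Its long gene body held 19.5 and 29.0 reads in WT and 78.5 and 59.2 in KO, and both KO libraries lay above both WT libraries. Before scaling this is 46 reads in WT and 113 in KO, a depth-adjusted ratio of 2.87 with an exact 95% interval of 2.02 to 4.14, which covers counting error only and not the spread between pools. The promoter-proximal window held 2 reads in WT and 9 in KO (ratio 5.26, exact 95% interval 1.09 to 50.02). When the filter on low values was dropped, the log2 fold changes were 1.65 in the promoter-proximal region and 1.48 in the gene body and neither was called (limma adjusted p = 0.244 and 0.113), in a fit that made no promoter-proximal call in any of the 20642 genes, although 4179 were up and 427 down at an unadjusted p under 0.05 in limma.

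*Trp53inp1* and *Sesn2* answer to metabolic and oxidative stress. *Trp53inp1* (chr4:11156431-11174379, plus strand) encodes a nuclear protein that promotes p53 activity and autophagy, and its gene body had 2268 and 2465 reads in WT and 1721 and 1546 in KO. Both KO libraries were lower, with a log2 fold change of -0.54 (standard error 0.11, limma adjusted p = 0.000511) that did not reach the fold threshold except without KO1 (-0.61, limma adjusted p = 0.0102). The promoter-proximal reads, 836 and 903 in WT and 870 and 1196 in KO, overlapped between the groups (log2 fold change 0.23, standard error 0.28, limma adjusted p = 0.522; -0.34 with scaling within the region).

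*Sesn2* (chr4:132492032-132510501, minus strand) encodes sestrin 2, which restrains mTORC1 under amino acid shortage and oxidative stress. It was the gene of the pathway with the most promoter-proximal reads, 3248 and 3390 in WT and 4085 and 5404 in KO. Its gene body reads went the other way, 1124 and 1252 in WT and 1046 and 896 in KO. The groups did not overlap in either region, yet neither passed the test, with log2 fold changes of 0.50 (standard error 0.26, limma adjusted p = 0.128) and -0.29 (standard error 0.12, limma adjusted p = 0.0654). With scaling within the region the promoter-proximal value was -0.07. A GENCODE gene, *Gm12981*, overlaps *Sesn2* on the same strand over 5941 bp, and reads of the 2 cannot be told apart there.

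The pausing index, the promoter-proximal read density divided by the gene body read density, was compared in the same way. It was called up for *Trp53*, *Phlda3* and *Cdkn1a* and down for no pathway gene (7 up and 0 down at an unadjusted p under 0.05 in limma), beside 12.4% of active genes called up and 0.519% called down. At that unadjusted threshold, 4334 of the 12705 active genes were up and 145 down. For *Trp53* the index was 58.2 and 38.8 in WT and 95.3 and 120.4 in KO, with a log2 fold change of 1.17 (standard error 0.40, limma adjusted p = 0.0364). For *Phlda3* it was 313 and 164 in WT and 407 and 524 in KO (log2 fold change 1.04, standard error 0.37, limma adjusted p = 0.0430). Both KO libraries were above both WT libraries for the 2 genes.

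*Mdm2* had a pausing index of 30.2 and 29.3 in WT and of 52.0 and 74.8 in KO, which missed the threshold (log2 fold change 1.06, standard error 0.41, limma adjusted p = 0.0614). The index of *Cdkn1a* was 0.09 and 0.07 in WT and 0.59 and 0.29 in KO (log2 fold change 1.77, standard error 0.60, limma adjusted p = 0.0358), but it rests on the few reads at the upstream start and on a gene body that contains the second start. The index was highest for *Sesn2* (962 and 902 in WT, 1301 and 2009 in KO). *Bax* had the lowest log2 fold change of the 9 tested genes, with 101 and 116 in WT and 94.1 and 154 in KO (log2 fold change 0.15, standard error 0.39, limma adjusted p = 0.765). The 3 calls of the pausing index did not hold in every setting. None was made with scaling within each region, where 6 of the 12705 active genes were called up and 11 down. The number of calls also depended on the library left out, for the pathway and for all active genes. The median log2 change of the index over active genes was 0.68, 0.55, 0.85 and 0.38 without WT1, WT2, KO1 and KO2.

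**Figure D3:**
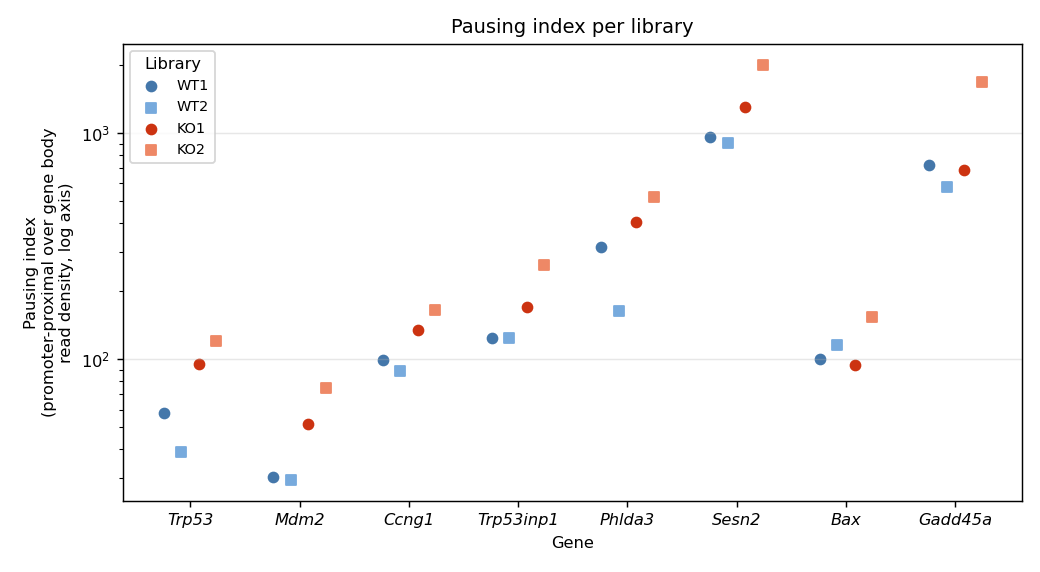
Pausing index of 8 pathway genes (promoter-proximal over gene body read density, log axis), with 1 point for each library; *Cdkn1a* and *Eda2r* are left out because their promoter-proximal windows held from 1 to 6 reads before scaling. KO points lie above WT points for *Trp53*, *Mdm2*, *Ccng1*, *Trp53inp1*, *Phlda3* and *Sesn2*, and KO2 is the highest library for each of the 8 genes.

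Levels per kb set the genes in a different order in the 2 regions. In WT gene bodies the mean density was highest for *Cdkn1a* (268 normalized reads per kb), followed by *Trp53inp1* (140), *Trp53* (89.4), *Mdm2* (79.6) and *Sesn2* (71.4). *Gadd45a* (47.3) and *Bax* (44.3) followed and overlapped in their ranges, then *Ccng1* (29.6), *Phlda3* (8.09) and *Eda2r* (0.572). In KO gene bodies *Cdkn1a* was still first (177), *Trp53* (97.4) and *Trp53inp1* (96.4) overlapped, and *Bax* (59.0) overlapped with *Sesn2* (58.3). By promoter-proximal density, in contrast, WT livers had *Sesn2* first (66380 normalized reads per kb), then *Gadd45a* (30500) and *Trp53inp1* (17390), and *Cdkn1a* was last together with *Eda2r* (21.5 each). The places of *Cdkn1a* refer to the transcript from the upstream start, whose counted gene body contains the second start.

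Other genes of the p53 and DNA damage response, 76 in the table and 72 tested, were counted by role. In the promoter-proximal region 17 were called up and 1 down, beside 25.8% and 2.20% of all active genes, and their median log2 fold change was 0.52 beside 0.56. In the gene body 5 were called up and 12 down, beside 10.4% and 11.4% of all active genes, with a median of -0.15 beside -0.09. These shares are the background for the counts of each list that follows. Scaling within the region turned the promoter-proximal split to 2 up and 10 down, and gave 5 up and 12 down in the gene body, where *Plk3*, a kinase of the arrest list named here after its values were seen, lost its call (0.82, limma adjusted p = 0.0558). Of the 17 genes called up in the promoter-proximal region, 14 were not called in the gene body, beside 2355 of 3282 such active genes. The number of promoter-proximal calls also depended on the library left out, for these genes and for all active genes. In both it fell without WT1, WT2 or KO2 and rose without KO1.

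Among 14 regulators of p53 and damage kinases, 3 were called up in the promoter-proximal region, beside 25.8% of all active genes, and none was called in the gene body by limma, edgeR or DESeq2 (0 up and 1 down at an unadjusted p under 0.05 in limma). *Chek1*, the checkpoint kinase below ATR, had 129 and 119 reads in WT and 269 and 272 in KO (log2 fold change 1.12). *Ep300*, which encodes an acetyltransferase of p53 and histones, had 76.9 and 92.0 reads in WT and 200.5 and 173 in KO (1.14). In both genes the KO libraries were above the WT libraries without overlap, and with scaling within the region neither was called (limma adjusted p = 0.116 and 0.162).

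Of 8 further arrest targets, 2 rose in the promoter-proximal region, and in the gene body 2 rose and 2 fell. The promoter-proximal reads of *Zmat3*, an RNA-binding protein and p53 target, were 173 and 176 in WT and 448 and 506 in KO (log2 fold change 1.44), and it was called with scaling within the region as well (0.87, limma adjusted p = 0.00619). *Plk2*, a polo-like kinase, rose by 1.0 on the log2 scale in the promoter-proximal region, and with scaling within the region it was not called (0.43, limma adjusted p = 0.207). Its gene body was called up as well, with 1276 and 1399 reads in WT and 2560 and 2326 in KO (log2 fold change 0.87). That call was also made with scaling within the region (0.95, limma adjusted p = 0.000118). The 2 relatives of *Gadd45a* fell in the gene body. *Gadd45g* had 631 and 1187 reads in WT and 104 and 85.0 in KO (log2 fold change -3.19), and *Gadd45b* had 117 and 116 in WT and 64.7 and 51.6 in KO (-0.999). Both KO libraries were below both WT libraries for each of them, whereas those of *Gadd45a* overlapped with WT.

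Of 11 further apoptosis targets, 3 rose in the promoter-proximal region, and in the gene body 1 rose and 3 fell. *Bbc3*, which encodes the BH3-only protein PUMA, rose in both regions. Its promoter-proximal reads were 83.8 and 58.0 in WT and 170 and 232 in KO (log2 fold change 1.5), and its gene body reads were 311 and 336 in WT and 751 and 811 in KO (1.27). Both calls were also made with scaling within the region (0.93 and 1.35). Among the genes that fell in the gene body, *Perp*, a membrane protein of desmosomes, had 295 and 250 reads in WT and 55.2 and 75.9 in KO (-2.05), and *Ei24*, a protein of the endoplasmic reticulum linked to autophagy, had 2243 and 1477 in WT and 882 and 855 in KO (-1.07).

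The 11 further metabolic and antioxidant targets held 1 rise and 1 fall in the promoter-proximal region, and 2 rises and 4 falls in the gene body. *Gdf15*, a stress-induced secreted factor, had 145 and 88.0 gene body reads in WT and 387 and 557 in KO (log2 fold change 2.03). *Gls2*, the liver glutaminase, went the other way in both regions, with 2637 and 3022 gene body reads in WT and 875 and 793 in KO (-1.76) and a promoter-proximal change of -1.11. *Aldh4a1*, a mitochondrial enzyme of proline breakdown, had 4021 and 4651 gene body reads in WT and 1865 and 2019 in KO (-1.16). *Sesn3*, a relative of *Sesn2*, had 2391 and 1551 in WT and 973 and 821 in KO (-1.11). The part of the cell type marker changes in the rises and falls of this list, as of the other lists, was not tested.

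Of 10 DNA repair targets, 6 were called up in the promoter-proximal region, beside 25.8% of all active genes, and 1 was called down in the gene body, beside 11.4%. *Ddb2*, a sensor of ultraviolet damage, had 20.7 and 21.0 promoter-proximal reads in WT and 40.3 and 86.5 in KO (log2 fold change 1.46). *Polh*, a translesion polymerase, had 55.1 and 48.0 in WT and 88.0 and 141 in KO (1.10), and *Mgmt*, which removes alkyl groups from guanine, had 71.1 and 94.0 in WT and 205 and 143 in KO (1.05). KO libraries were above WT libraries in each, and none of the 3 was called with scaling within the region (limma adjusted p = 0.0827, 0.218 and 0.297).

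The 18 genes of double-strand break repair had 2 rises in the promoter-proximal region and 2 falls in the gene body. *Nbn*, a subunit of the complex that senses broken ends, had 92.9 and 83.0 promoter-proximal reads in WT and 177 and 219 in KO (log2 fold change 1.16), and it was not called with scaling within the region (0.59, limma adjusted p = 0.108). *Xrcc5*, which encodes the Ku80 subunit of the end-joining machinery, had 1217 and 1128 gene body reads in WT and 604 and 559 in KO (-1.01).

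**Figure D4:**
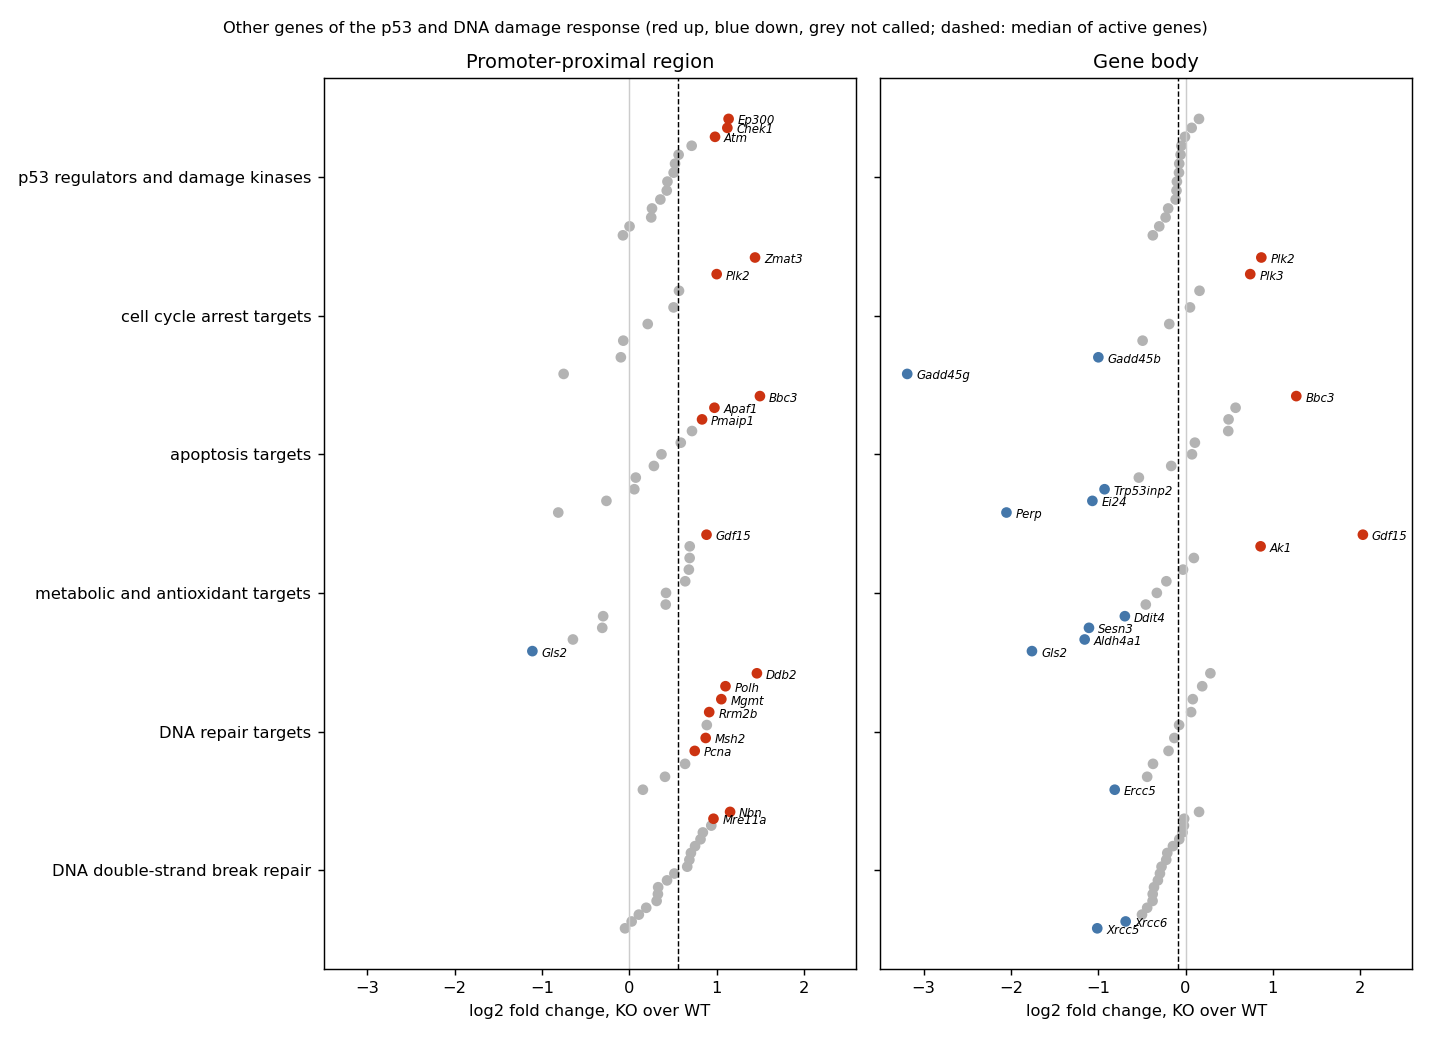
Log2 fold change (KO over WT) of 72 other tested genes of the p53 and DNA damage response, 1 point a gene, in 6 lists by role, for the promoter-proximal region (left) and the gene body (right). Red points were called up, blue down and grey not called, and the dashed lines are the medians of all active genes (0.56 and -0.09); 17 red points and 1 blue point appear on the left, and 5 red and 12 blue points on the right.

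Distal elements near the pathway were read from the deposited list of 2282 enhancers, which was made from pooled reads and gives no values of single libraries. *Trp53inp1* and *Gadd45a* were each the closest gene of 1 enhancer. That of *Trp53inp1* (chr4:11122955-11124482, 1527 bp) lay 31959 bp upstream of its start, and that of *Gadd45a* (chr6:67101935-67103583, 1648 bp) lay 64528 bp upstream; neither is marked as a FANTOM5 enhancer. By chromatin contacts of the 4DGenome collection, enhancers of the list were linked to *Sesn2* (6), *Trp53inp1* (5), *Mdm2* (4), *Trp53* (3), *Gadd45a* (3), *Cdkn1a* (1), *Phlda3* (1) and *Eda2r* (1), and none to *Ccng1* or *Bax*. The authors state that this collection includes contacts from tissues other than liver, so these links need not be liver contacts.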

How the data were processed

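Nascent transcription was measured by PRO-seq in 4 liver libraries (2 WT, 2 KO), grouped by their labels. The authors trimmed the reads (cutadapt), aligned them to mm10 with Bowtie2 and counted them over 20820 RefSeq transcripts with NRSA, by strand. For WT2 the deposited values are counts, as its factor is 1. The other deposited values are a normalized signal, in which the counts were multiplied by 1.15 (WT1), 1.06 (KO1) or 1.52 (KO2), and dividing by these factors gave whole reads (within 0.01) for 100% of the values. The authors' densities are signal per bp.

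Log2 values of normalized reads + 1, and the log2 pausing index, were compared over active genes with limma 3.58.1 (trend, empirical Bayes) in R 4.3.3, with Benjamini-Hochberg adjustment. The recovered reads were also tested with edgeR 4.0.16 and DESeq2 1.42.0, and the fit was repeated with pseudocounts of 0.1 and 10, with other filters, scalings and thresholds, with the replicate number as a block, and without each library. The steps were tested on simulated data. Low counts were compared with an exact conditional interval (scipy 1.17.1, Python 3.11.15), and plots used matplotlib 3.10.9. All 10 pathway genes are named. Of the other p53 genes, at most 10 called genes per region, those with the largest changes and no overlap between groups, are named. The members and lists were chosen with earlier results of these data known. The p-values measure the spread between these pools of mice only. In the main fit, limma took that spread in the promoter-proximal region and the pausing index from all active genes at similar levels. A gene's own libraries did not set it there, and in the gene body both sources were combined. Other data types of the study and the authors' own comparisons were not used here.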

Additional observations from a re-analysis of the deposited data

How the results depend on the processing

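Over all alternatives, 362 of the log2 fold changes of pathway genes kept direction and call, 43 lost a call, 12 gained one and 15 turned sign. The number of pathway genes called in the promoter-proximal region (3) was 0 with no filter on low values (limma; over all genes 4179 up and 427 down at an unadjusted p under 0.05), 1 with median-of-ratios scaling within the region, 1 with edgeR and TMM, and 0 to 3 without 1 library. The number called in the gene body (1) was 0 with no filter, with median-of-ratios scaling by region or from gene bodies, and with edgeR and TMM, 2 with no fold threshold, and 0 to 1 without 1 library. The number called by pausing index (3) was 1 with a pseudocount of 0.1, 0 with no filter and 0 with median-of-ratios scaling, and 0 to 6 without 1 library. For the other p53 genes, 18 promoter-proximal calls became 0 with no filter and 1 to 25 without 1 library, and 17 gene body calls became 7 with no filter and 27 with no fold threshold. Over all active genes, 3562 promoter-proximal calls became 0 with no filter, 1576 with median-of-ratios scaling, 1699 with edgeR and TMM, and 402 to 3704 without 1 library. There, 2773 gene body calls became 995 with no filter and 4968 with no fold threshold. The 1640 pausing calls became 2469 with a pseudocount of 10, 0 with no filter (3018 up and 608 down at an unadjusted p under 0.05 in limma), 17 with median-of-ratios scaling and 35 to 5356 without 1 library. Signs turned in the promoter-proximal region with median-of-ratios scaling and with edgeR and TMM for *Trp53inp1* (-0.34 and -0.34), *Sesn2* (-0.069 and -0.073), *Bax* (-0.0041 and -0.028) and *Gadd45a* (-0.18 and -0.18). The pausing index of *Bax* was -0.50 with median-of-ratios scaling. Without 1 library, values ranged from -0.0497 to 0.11 for the gene body of *Mdm2*, -0.41 to 0.88 for the gene body of *Phlda3*, -0.20 to 0.51 for the pausing index of *Bax* and -0.69 to 0.0214 for the gene body of *Gadd45a*. The causes were not tested.

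Libraries share replicate numbers but are not known to be pairs, and the deviations of same-numbered libraries correlated over genes at -0.105 in the promoter-proximal region and 0.0189 in the gene body (Pearson r). With the replicate block, the pathway genes had 3 promoter-proximal calls, 1 gene body call and 0 pausing calls (limma; 2827 active genes up and 108 down at an unadjusted p under 0.05), the other p53 genes had 11 promoter-proximal calls, and all active genes had 1949 promoter-proximal and 198 pausing calls. A crossed pairing, added after seeing the data, gave 6 pausing calls of pathway genes, 31 promoter-proximal calls of the other p53 genes and 4226 pausing calls of active genes. The depth of KO2, the shallowest library, limits genes with few reads most, and *Cdkn1a*, *Eda2r*, *Phlda3* and *Gadd45a* each had a region with under 30 reads in some library.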

Other observations

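Among active genes, 2355 of the 3282 that were called up in the promoter-proximal region were not called in the gene body, as was the case for 3 of 3 pathway genes. The TATAAA motif, searched on both strands, was found in the promoter windows of *Trp53* and *Eda2r* and in 13.6% of all windows. In the 250 bp before the start, the *Trp53* match was the reverse complement at the far end. The *Eda2r* match was in forward orientation and nearer the start. A second GENCODE gene, *AC167363.2*, overlaps *Cdkn1a* on the opposite strand over 1046 bp. Of the proliferation markers, *Cdk1* alone was called in the promoter-proximal region, where it was up, and none of the 7 was called in the gene body in limma.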
